A study of Mus musculus with 15 samples.

Results

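The account below follows the pantetheinase genes Vnn1 and Vnn3 together with the genes of the route that uses their product: the pantothenate kinase genes Pank1, Pank2 and Pank3, and Coasy. These are 6 of the 19938 genes measured by a probe set that carries 1 gene symbol, and each of the 6 was read by 1 probe set. The arrays measured mRNA in the livers of 15 male mice, 1 array per mouse. Wild-type mice were 129S1/SvlmJ and mice lacking the nuclear receptor PPARalpha were 129S4/SvJae-Pparatm1Gonz/J, all kept as an inbred colony on a 129/Sv background and fed LabDiet 5001. Mice aged 7.5 months (give or take 2.5 weeks) were gavaged once a day with corn oil alone or with DEHP in corn oil at 1150 mg/kg, for 4 doses. DEHP, di(2-ethylhexyl) phthalate, is a plasticizer. There were 4 wild-type mice on corn oil, 4 wild-type mice on DEHP, 4 null mice on corn oil and 3 null mice on DEHP. The null mice lack the receptor in the whole body and come from another 129 substrain than the wild types, so the null allele cannot be told apart from the substrain.

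Vanins are enzymes that split pantetheine, a breakdown product of coenzyme A, into pantothenate (vitamin B5) and cysteamine. Vnn1 encodes the membrane-anchored form, which is abundant in liver and kidney, and Vnn3 encodes a related enzyme. Pantothenate is phosphorylated by the pantothenate kinases, the rate-controlling step of coenzyme A synthesis, and the Coasy product carries out the last steps. PPARalpha is a fatty-acid-sensing receptor that raises transcription of genes for fatty acid oxidation, a process that consumes free coenzyme A, and phthalate monoesters are among its activators.

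The members sit on 4 chromosomes in the RefSeq annotation of GRCm38.p6. Vnn3 (chr10:23851462-23869843) and Vnn1 (chr10:23894688-23905344) are neighbours, with 24.8 kb between the end of Vnn3 and the start of Vnn1. Pank1 lies at chr19:34806935-34883423, Pank2 at chr2:131262008-131299188, Pank3 at chr11:35769495-35791285 and Coasy at chr11:101082565-101086619. Each of the 3 kinase genes holds a microRNA gene within its span: Mir107 (chr19:34820687-34820773) within Pank1, Mir103-2 (chr2:131288052-131288137) within Pank2 and Mir103-1 (chr11:35782396-35782481) within Pank3. The mature RefSeq sequences are shown because a probe set annotated to Mir107 gave values described further on, with the seed (bases 2 to 8) in capitals.
mmu-miR-103-3p: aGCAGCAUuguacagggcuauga
mmu-miR-107-3p: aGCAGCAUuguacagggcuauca
The 3p forms share the seed GCAGCAU and all but 1 of 23 bases, the difference from miR-103-3p to miR-107-3p being G22C counted from the 5′ end. Mir103-1 and Mir103-2 give the same 3p form, and their 5p forms share the seed GCUUCUU with that of Mir107.
mmu-miR-103-1-5p: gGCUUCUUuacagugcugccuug
mmu-miR-103-2-5p: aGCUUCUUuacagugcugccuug
mmu-miR-107-5p: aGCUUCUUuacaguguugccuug

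Start-site windows were held for 4 of the 6 members, Vnn3, Pank1, Pank2 and Pank3. Those of Vnn3 and Pank3 are printed because both genes rose with DEHP in wild-type liver (below). Each is the 250 bases before the start on the plus strand of GRCm38.p6, from RefSeq, all in lower case because no searched motif matched.
Vnn3, chr10:23851212-23851461: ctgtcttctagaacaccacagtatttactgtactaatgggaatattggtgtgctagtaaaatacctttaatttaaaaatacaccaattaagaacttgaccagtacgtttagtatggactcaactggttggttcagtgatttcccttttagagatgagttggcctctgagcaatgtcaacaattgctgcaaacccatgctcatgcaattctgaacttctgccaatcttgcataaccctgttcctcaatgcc
Pank3, chr11:35769245-35769494: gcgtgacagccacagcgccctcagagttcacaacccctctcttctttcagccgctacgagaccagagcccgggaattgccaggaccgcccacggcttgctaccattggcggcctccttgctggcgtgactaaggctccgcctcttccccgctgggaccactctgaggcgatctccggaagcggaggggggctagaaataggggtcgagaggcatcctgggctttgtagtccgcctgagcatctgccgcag
The windows differ in base composition, with a GC content of 39.2% for Vnn3 and 63.6% for Pank3 against a median of 52.4% over all windows. PPARalpha binds, as a heterodimer with RXR, direct repeats of the hexamer AGGTCA set 1 base apart. The repeat AGGTCANAGGTCA, a looser form AGGNCANAGGNCA and the single hexamer AGGTCA, which the repeat contains, were searched on both strands of 300-base windows that run 50 bases past the start. They occur in 0.0396%, 0.381% and 16.3% of 32851 windows. None of the 3 matched in any window of the 4 genes, which says only that these letters are not in these stretches.

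The arrays were of like brightness, with median intensities between 44.4 and 47.5, and replicates of a group correlated at 0.988 to 0.992. Ppara itself read 750.7 to 1197 in the 8 wild-type mice and 508.4 to 617 in the 7 null mice, without overlap. The sources used here do not say which part of Ppara its probe set covers, so this reading does not check the deletion itself. The hepatocyte markers measured (7 of 8) summed to between 61550 and 69430 on every array. In wild types the sums were 65190 to 66710 on corn oil and 62200 to 64710 on DEHP, without overlap. In nulls they were 61550 to 68620 on corn oil and 63220 to 69430 on DEHP. Among these markers Cps1 fell with DEHP in wild-type liver, and Hnf4a was higher in nulls under DEHP. Whole liver was used, so fewer cells of a type and less RNA per cell cannot be told apart.

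Vnn1 showed the widest span of any member. In wild-type mice on corn oil its intensity was 64.29, 114.8, 97.88 and 64.0. In wild-type mice on DEHP it was 909.3, 812.4, 2230 and 929.2. In null mice it was 25.53, 31.27, 28.71 and 20.08 on corn oil and 26.39, 30.54 and 23.82 on DEHP. Every DEHP-treated wild-type mouse was above every other mouse, and every null mouse was below every wild-type mouse. The order was wild type on DEHP, then wild type on corn oil, then both null groups, whose ranges overlapped.

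Vnn1 rose with DEHP in wild-type liver by 3.75 ± 0.27 on the log2 scale (moderated SE, 95% interval 3.18 to 4.33), a 13.5-fold rise with a limma adjusted p of 7.2e-07. This was the rise ranked 6 among all 19938 genes. The exact permutation test over the mice gave p = 0.0286, the smallest that 4 against 4 can give. Mouse 58, at 2230, stood above the other treated mice, and the difference without it was 3.42 (adjusted p = 1.31e-07).

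In null liver the Vnn1 difference was 0.04 ± 0.29 on the log2 scale, with an interval from -0.58 to 0.66 and an adjusted p of 0.975. The interval still holds rises of up to 0.66, so a small response was not excluded by these 7 mice. All null readings of Vnn1 were below the array medians, and the interval covers measured intensity only. The DEHP effect differed between genotypes by 3.71 ± 0.40 (adjusted p = 0.000197 for the interaction). Vnn1 was also lower in null than in wild-type liver without DEHP, by 3.17-fold (log2 difference -1.66 ± 0.27, adjusted p = 0.00392). Adding 32 to every intensity before the logarithm reduced that difference to -0.98 (adjusted p = 0.0719), since the null readings lie between 20.08 and 31.27. Under DEHP the null mice were 41.5-fold below the wild types (log2 difference -5.38 ± 0.29, adjusted p = 1.31e-08). With 32 added that difference was -4.28, still called, so the fold depends on how these dim null readings are treated. Each DEHP effect shares 1 group of mice with each comparison of genotypes.

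**Figure D1:**
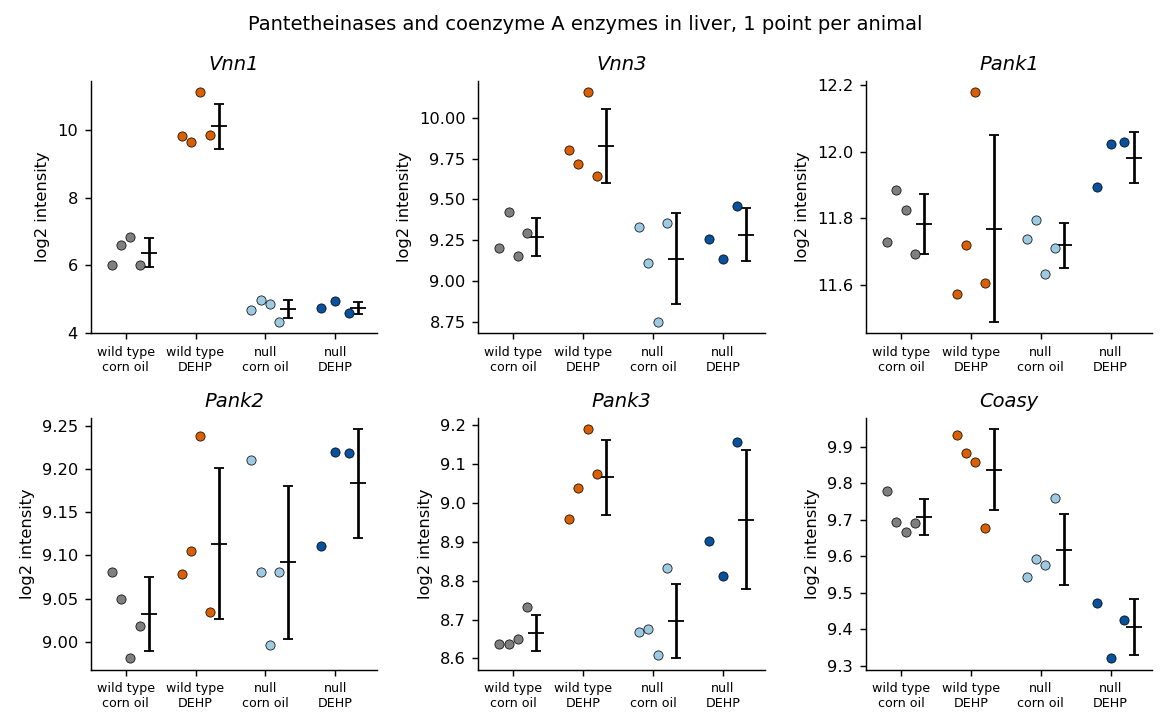
Log2 intensity of Vnn1, Vnn3, Pank1, Pank2, Pank3 and Coasy in each of the 15 mice, by genotype and treatment, 1 point per mouse with the group mean ± SD beside the points and a separate vertical scale per gene. The treated wild types have a mean of 10.12 for Vnn1 against 6.37 in their controls and 4.70 and 4.74 in the null groups, while the group means of every other member lie within 1 log2 unit of each other.

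Vnn3, the neighbouring vanin gene, responded over a far smaller range. Its intensity was 628.2, 570.6, 685.2 and 588.8 in wild types on corn oil and 892.9, 842.6, 1141 and 799.0 in wild types on DEHP. It was 642.6, 552.0, 430.7 and 656.4 in nulls on corn oil and 612.0, 563.0 and 702.8 in nulls on DEHP. All 4 treated wild types were above the other 11 mice, and the other 3 groups overlapped with one another.

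Vnn3 rose with DEHP in wild-type liver by 0.56 ± 0.13 (log2, interval 0.28 to 0.84), or 1.48-fold, with a limma adjusted p of 0.0257 and an exact permutation p of 0.0286. The Vnn1 and Vnn3 intervals in wild-type liver do not overlap. Mouse 58 was again the highest of the treated mice, at 1141, and without it the Vnn3 difference was 0.45 and missed the threshold (adjusted p = 0.0784). The call was also lost without mouse 52, 54, 55 or 56 (adjusted p below 0.0784 in each) and held without 53, 57 or 59, while each of these fits kept the direction. In null liver the Vnn3 difference was 0.15 ± 0.14 (interval -0.15 to 0.45, adjusted p = 0.753).

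The Vnn3 effect was 0.41 ± 0.19 larger in wild type than in null liver, and this difference did not pass (adjusted p = 0.371). On corn oil the genotypes differed in Vnn3 by -0.13 ± 0.13 (adjusted p = 0.77), in contrast to the lower Vnn1 of the nulls. Under DEHP, Vnn3 was lower in null than in wild-type liver by 0.55 ± 0.14 on the log2 scale (difference -0.55, adjusted p = 0.0214). That call was lost without mouse 58, KO_121 or KO_122, the last giving -0.47 with an adjusted p of 0.117.

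Pank3, one of the kinases that phosphorylate pantothenate, was the third member to rise in wild-type liver. Its intensity was 425.6, 401.9, 398.5 and 397.9 on corn oil and 498.1, 525.6, 584.3 and 539.2 on DEHP, without overlap. The rise was 0.40 ± 0.08 on the log2 scale, or 1.32-fold (adjusted p = 0.00747, exact permutation p = 0.0286). It kept its call without any 1 of the 8 wild-type mice, with differences from 0.36 to 0.44.

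In null mice Pank3 read 406.6, 408.8, 390.5 and 455.8 on corn oil and 478.6, 449.0 and 570.7 on DEHP. The highest control mouse, KO_118, read above the lowest treated mouse, KO_122. The difference was 0.26 ± 0.08 (interval 0.08 to 0.44) with an adjusted p of 0.18, and the interaction of 0.14 ± 0.11 (interval -0.10 to 0.38) did not pass either (adjusted p = 0.655). The Pank3 response of the 2 genotypes was therefore not separated by these arrays. Neither genotype comparison of Pank3 passed: the differences were 0.03 on corn oil (adjusted p = 0.928) and -0.11 under DEHP (adjusted p = 0.498).

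Pank1, whose gene gives the main hepatic kinase, was not called for DEHP in wild-type liver. Its intensity there was 3308, 3631, 3784 and 3396 on corn oil and 3049, 3374, 4630 and 3122 on DEHP. Mouse 58 was the only treated wild type above all controls. Of the treated wild types it was also highest for Vnn1, Vnn3, Pank2, Pank3 and Ppara, but not for Coasy. The wild-type Pank1 difference was -0.01 ± 0.11 (interval -0.24 to 0.21, adjusted p = 0.971), so a small change in either direction was not excluded.

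In null liver Pank1 was 3418, 3553, 3177 and 3353 on corn oil and 3808, 4158 and 4179 on DEHP. All 3 treated nulls were above all 4 null controls. The difference of 0.26 ± 0.11 (interval 0.02 to 0.50) had an adjusted p of 0.353, and the exact permutation p of 0.0571 is the smallest that 4 against 3 can give. Pank1 under DEHP was higher in nulls by 0.21 ± 0.11 without passing (adjusted p = 0.289), and without mouse 58 this became 0.35 and passed (adjusted p = 0.00798).

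Pank2, which encodes a kinase with a mitochondrial form, varied least. It ranged from 505.3 to 541.6 in wild types on corn oil and from 524.2 to 604.0 on DEHP, and from 510.5 to 592.1 in null controls and 552.8 to 596.4 in treated nulls. The groups overlapped in both genotypes. The DEHP differences were 0.08 ± 0.06 in wild type (interval -0.05 to 0.21, adjusted p = 0.581) and 0.09 ± 0.07 in null liver (interval -0.05 to 0.23, adjusted p = 0.646).

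Coasy, the bifunctional synthase at the end of the route, was lower in null than in wild-type liver under DEHP. It read 826.0, 812.4, 827.7 and 878.7 in wild types on corn oil and 977.0, 943.8, 927.4 and 818.7 on DEHP. In nulls it read 746.1, 772.4, 763.6 and 866.8 on corn oil and 709.5, 639.4 and 687.3 on DEHP. Treated nulls were below every other mouse, and 3 of the 4 treated wild types were above every other mouse.

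Neither DEHP effect on Coasy passed alone: the difference was 0.13 ± 0.07 in wild type (adjusted p = 0.365) and -0.21 ± 0.07 in null liver (adjusted p = 0.22). Under DEHP, Coasy was lower in null than in wild-type liver by 1.35-fold (log2 difference -0.43 ± 0.07, adjusted p = 0.00138). The call held without each of the 7 mice in turn. The interaction of 0.34 ± 0.10 had an adjusted p of 0.118.

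**Figure D2:**
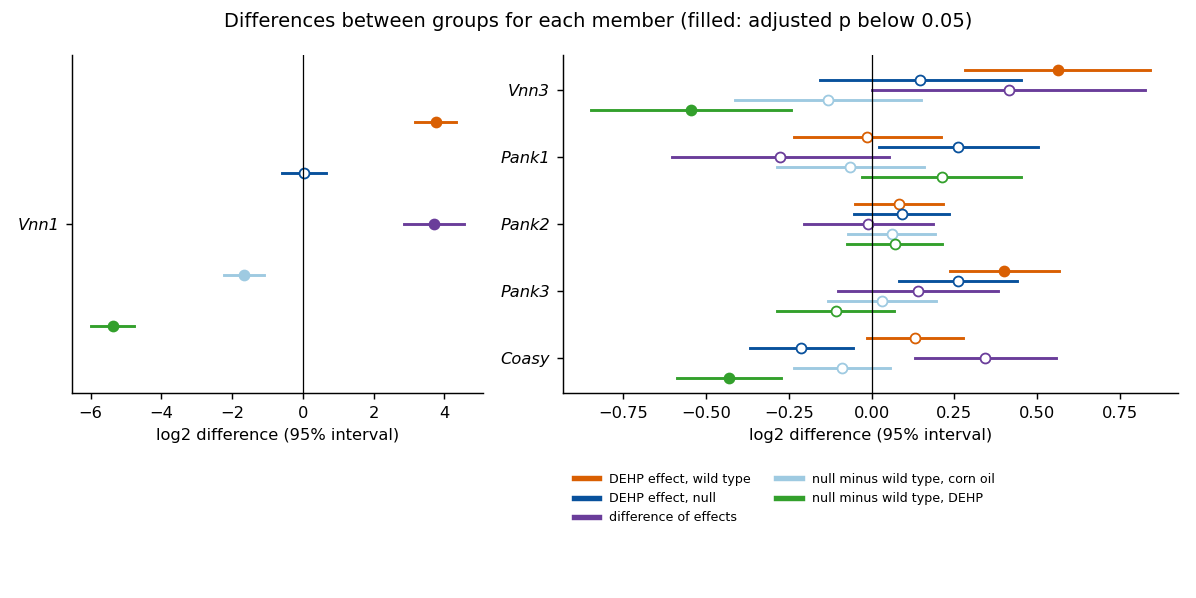
Log2 differences of the 6 members with 95% intervals in 5 comparisons: the DEHP effect in each genotype, the difference of these effects, and null against wild type on each treatment. Filled points passed an adjusted p of 0.05. Vnn1 is drawn on a wider axis than the other 5 because it reaches -5.38, and among the others the intervals of the called points run from -0.85 to 0.84.

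By the count over members, 3 of 6 rose and 0 fell with DEHP in wild-type liver, where 2.29% of all genes rose and 3.86% were called in either direction. In null liver 0 of 6 were called, against 0.471% of all genes. The treated and control mice did not overlap for 3 of 6 members in wild-type liver (11.9% of all genes) and for 2 of 6, Pank1 and Coasy, in null liver (9.99% of all genes). The interaction was called for Vnn1 (0.898% of all genes), and the lower Vnn1 of untreated nulls was the 1 call between genotypes on corn oil (1.19% of all genes, 0.547% being lower in nulls). Under DEHP 3 of 6, Vnn1, Vnn3 and Coasy, were lower in nulls, where 5.61% of all genes were lower and 10.7% were called in either direction. In that comparison 4 of 6 endothelial markers and 3 of 5 stellate cell markers were higher in nulls, and their part in the lower members was not tested. The median difference over the 6 was 0.27 in wild type and 0.12 in null liver, beside -0.01 and 0.01 over all genes. Pank3 and Vnn3 held ranks 379 and 191 by the wild-type rise, and Coasy, Pank2 and Pank1 held ranks 2742, 4350 and 9856.

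Other genes tied to coenzyme A, pantothenate or cysteamine were taken as 6 lists, of which 31 of 32 genes were measured. With DEHP, 1 rose and 2 fell in wild-type liver (3.86% of all genes were called) and 0 were called in null liver, where a share of 0.471% over all genes leaves little to read from so few. None of the 8 other synthesis and transport genes was called in either genotype. The largest of these differences was 0.19 for Slc5a6, the sodium-dependent pantothenate transporter, in wild type (adjusted p = 0.514) and -0.19 for Aasdhppt, which attaches phosphopantetheine to carrier proteins, in nulls (adjusted p = 0.402). None of the 5 measured coenzyme A breakdown genes was called. The largest values were 0.10 for Nudt8, a mitochondrial coenzyme A hydrolase, in wild type (adjusted p = 0.576) and 0.36 for Enpp3, an ectonucleotide phosphodiesterase, in nulls (adjusted p = 0.144).

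Among all comparisons of these 2 lists, the calls were lower values in nulls under DEHP. Over the 6 lists, 4 of 31 measured genes were lower and 2 higher in nulls under DEHP. Of all genes, 5.61% were lower in that comparison and 10.7% were called in either direction. Ppcs, the enzyme that follows the kinases by joining cysteine to phosphopantothenate, read 361.7, 304.2, 414.4 and 353.6 in treated wild types and 259.9, 237.6 and 267.7 in treated nulls, without overlap. Its difference was -0.48 ± 0.10 (adjusted p = 0.00407), beside -0.31 on corn oil (adjusted p = 0.127). Aasdhppt (-0.35, adjusted p = 0.0192) and Nudt8 (-0.35, adjusted p = 0.0105) were lower as well. Neither kept its call without mouse KO_122 or when only the treated groups were fitted, and Aasdhppt also lost it without mouse 57 or 59. Of 4 nitrilase-fold relatives of the vanins, Nit2, an omega-amidase, was lower in treated nulls (-0.30, adjusted p = 0.0116, lost without mouse KO_122 or with only the treated groups), and none was called for DEHP. The relative with the largest DEHP difference was Btd, which frees biotin, at 0.15 in wild type (adjusted p = 0.497) and 0.23 in nulls (adjusted p = 0.382).

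The cysteamine that vanins release can be oxidised to hypotaurine, which liver also makes from cysteine through the Csad decarboxylase. Csad was the 1 gene of 7 in this list that rose. It read 536.6, 678.5, 783.6 and 534.0 in wild types on corn oil and 2188, 2653, 1887 and 1537 on DEHP. It read 1076, 1225, 945.3 and 1421 in null controls and 2127, 871.7 and 1533 in treated nulls. Every null control was above every wild-type control, and the treated nulls spread from below to above their controls.

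The wild-type rise of Csad was 1.70 ± 0.23 (log2), or 3.24-fold (adjusted p = 0.000531), and it kept its call without each wild-type mouse in turn. In null liver the difference was 0.30 ± 0.25 (adjusted p = 0.698), and the interaction of 1.40 ± 0.34 did not pass (adjusted p = 0.0633). The higher Csad of untreated nulls, 0.89 ± 0.23, did not pass either (adjusted p = 0.0865). The largest null difference in the list was that of Fmo1, a flavin monooxygenase, with 0.297 (adjusted p = 0.175), beside 0.296 for Csad.

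Beta-alanine forms part of the pantothenate molecule, which mammals take up rather than build. Of 5 genes from pathways that supply or use beta-alanine, Dpyd was called. Dpyd, the first enzyme of pyrimidine breakdown, read 2595, 2543, 2621 and 2711 in wild types on corn oil and 2375, 2254, 2006 and 2308 on DEHP, without overlap. It fell by 0.23 on the log2 scale (difference -0.23 ± 0.06, adjusted p = 0.0494), a call lost in 7 of the 8 fits that left out 1 wild-type mouse (adjusted p up to 0.133). Treated nulls were higher in Dpyd than treated wild types by 0.31 ± 0.07 (adjusted p = 0.00628, or 0.0539 with only the treated groups). Abat, which uses beta-alanine as a substrate, had the largest null difference at 0.19 (adjusted p = 0.225).

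The probe set annotated to Mir107, inside Pank1, gave 38.34, 34.04, 33.34 and 36.68 in wild types on corn oil and 26.72, 28.9, 28.36 and 20.9 on DEHP, without overlap. Null mice gave 33.52, 32.84, 29.31 and 28.24 on corn oil and 37.05, 40.75 and 33.61 on DEHP. The wild-type values went down with DEHP and the treated nulls were all above their controls.

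Mir107 intensity fell by 0.45 on the log2 scale in wild-type liver (difference -0.45 ± 0.10, adjusted p = 0.0182), a call lost without mouse 52 or 55. The null difference was 0.26 ± 0.11 (adjusted p = 0.324), and the interaction was -0.71 ± 0.15 (adjusted p = 0.0328), which 8 of the 15 fits that left out 1 mouse did not keep. Under DEHP, nulls were higher by 0.51 ± 0.11 (adjusted p = 0.00595). With 32 added to every intensity these Mir107 differences shrank to -0.22, -0.35 for the interaction and 0.25 under DEHP, each still called. With all probe sets tested, the interaction of -0.71 lost its call (limma adjusted p = 0.0679). All readings of Mir107 were below the array medians, and the sources used here do not say whether this probe set reads the mature form, the hairpin or the Pank1 transcript. Mir103-1 and Mir103-2 were not called in either genotype, with wild-type differences of -0.01 (adjusted p = 0.967) and -0.36 (adjusted p = 0.113).

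**Figure D3:**
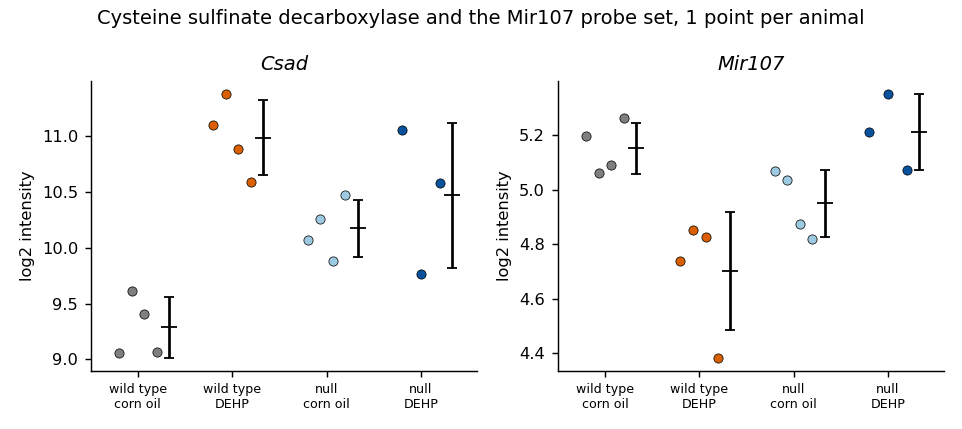
Log2 intensity of Csad and the Mir107 probe set in each mouse, by genotype and treatment, 1 point per mouse with the group mean ± SD beside the points. The treated wild types have a mean of 10.98 for Csad against 9.29 in their controls, and of 4.70 for Mir107 against 5.15, and neither pair of groups overlaps.

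Around the vanin genes, 18 of 30 annotated neighbours within 500 kb were measured, and 0 were called with DEHP in wild-type liver, too few genes to read against 3.86% of all genes. The largest wild-type difference was -0.29 for Snora33 (adjusted p = 0.154). In null liver 1 of the 18 fell, Rps12, where 0.471% of all genes were called, again too few genes to read. Rps12, a ribosomal protein gene, read 3264, 3243, 3610 and 3982 on corn oil and 2845, 2386 and 2370 on DEHP in null mice. Its difference was -0.48 ± 0.08 (adjusted p = 0.023), which 4 of the 7 fits that left out 1 null mouse did not keep. The call was also lost with only the null groups fitted (limma adjusted p = 0.252). The Rps12 interaction was 0.56 (adjusted p = 0.024), which 5 of the 15 fits that left out 1 mouse did not keep (adjusted p up to 0.0774). Under DEHP, Rps12 was lower in nulls (log2 difference -0.49, adjusted p = 0.00104). Interactions were called for 0.898% of all genes, and 10.7% were called between genotypes under DEHP.

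As a description, the genes whose log2 values followed Vnn1 most closely over the 15 mice were Hadhb (r = 0.985), Decr1 (0.984), Hsd17b11 (0.983), Serinc2 (0.979) and Ctse (0.979). Hadhb and Decr1 encode mitochondrial enzymes of fatty acid oxidation. The points share the 4 groups, and Vnn1 separates them widely, so these values mostly describe group means. Their wild-type differences spanned 0.70 for Hadhb to 2.29 for Serinc2, all below that of Vnn1. Vnn3 was followed by Trap1 (0.95), Sh3bgrl2 (0.927), Fads2 (0.926), Yaf2 (0.923) and Ces1d (0.922), and the 2 lists of 5 share no gene. Pank1 was followed by 2900026A02Rik (0.872), Fgf1 (0.856), Cluh (0.83), Ptges3 (0.828) and Hp1bp3 (0.826).

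Markers of other cell types were read beside the members. Summed intensity over 10 neutrophil markers was 246.8 to 281.1 in wild types on corn oil and 318.5 to 412.7 on DEHP, and 1 of the 10, S100a8, rose. It was 255.1 to 367.9 in null controls and 293.0 to 359.0 in treated nulls. Summed over 8 Kupffer cell markers it was 1776 to 2064 and 1581 to 2432 in the wild-type groups, with mouse 58 highest, and 0 of the 8 were called for DEHP. In null liver the Kupffer sums were 1992 to 2622 on corn oil and 2250 to 2659 on DEHP. Under DEHP, Csf1r was higher in nulls. The 6 endothelial markers summed to 1848 to 2078 in treated wild types and 2358 to 2618 in treated nulls, without overlap, and Cdh5, Kdr, Pecam1 and Stab2 were higher in nulls. On corn oil the endothelial sums were 2055 to 2310 in wild types and 2057 to 2278 in nulls, and Stab2 fell with DEHP in wild-type liver. The 5 stellate cell markers summed to 1808 to 1957 in treated wild types and 2230 to 3071 in treated nulls, and Dcn, Pdgfrb and Reln were higher in nulls. Their sums on corn oil were 1858 to 2186 in wild types and 2263 to 3273 in nulls, and Reln fell with DEHP in wild-type liver. Of the monocyte, cholangiocyte and lymphocyte markers, 0 were called for DEHP in either genotype, and Ccr2 was higher in nulls on corn oil. The marker lists are too short to read these DEHP counts against the 3.86% of all genes called in wild-type and 0.471% in null liver. No marker was at 0, but neither was any deposited intensity, the lowest being 1.77, so this does not show that each marker was detected. The part of these cell types in the results was not tested.

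**Figure D4:**
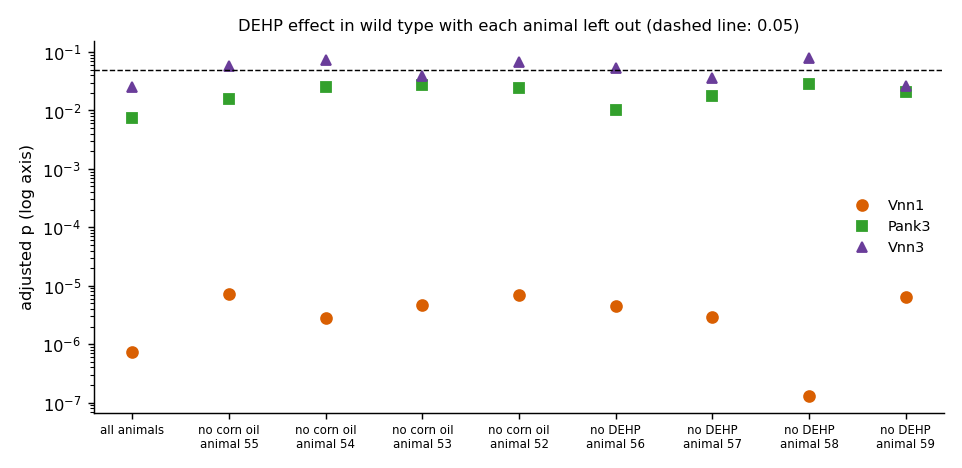
Adjusted p (log axis) of the DEHP effect on Vnn1, Pank3 and Vnn3 in wild-type liver, with all 8 mice and without each in turn, and a dashed line at 0.05. Every Vnn1 and Pank3 point lies below the line, Pank3 reaching 0.0284, and 5 of 8 Vnn3 points without 1 mouse lie above it, up to 0.0784.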

How the data were processed

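Total liver RNA was isolated and converted to labelled cDNA with an Affymetrix whole-transcript kit, per the labels' protocols. The authors' deposited table holds a linear intensity per probe set (1.77 to 23336.67), and the sources used here do not say how it was summarised or normalized. Of 35494 probe sets, 21789 carry 1 gene symbol in the platform annotation, and the brightest per gene left 19938 genes. log2 intensities of all 15 arrays were fitted with limma 3.58.1 (R 4.3.3), 1 mean per group, with Benjamini-Hochberg adjustment per comparison over all genes and a threshold of 0.05. Intervals are 95%, on 11 residual and 4.68 prior degrees of freedom. Folds are ratios of geometric means. Exact permutation tests were two-sided. The fit was tested on simulated data. The members, the lists and the alternatives were chosen with earlier results of these data known. Named genes are the members, from each list up to 4 called genes per comparison or else the largest difference, and the 5 most correlated with Vnn1, Vnn3 and Pank1. Alternatives were other scalings, a filter on dim genes, other probe set choices, weights, an offset and leaving out each mouse. The labels do not say whether mice shared a cage or processing day.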

Additional observations from a re-analysis of the deposited data

Results flagged for a closer look

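In 45 groups of 4 mice, formed by 15 genes, the gap of 1 extreme mouse to its nearest neighbour exceeded Dixon's 95% limit for 4 values in 3, which chance passes in about 1 of 20 groups. Vnn1 in wild-type mouse 58 on DEHP was 11.12 on the log2 scale, with the others from 9.67 to 9.86. Pank3 in wild-type mouse 55 on corn oil was 8.73, with the others from 8.64 to 8.65. Aasdhppt in wild-type mouse 54 on corn oil was 8.51, with the others from 8.42 to 8.43.

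The 15 genes are the 6 members plus the list genes, neighbours and Ppara that were called in at least 1 comparison. For 3 of them the DEHP effect differed between genotypes by the interaction term. The interaction was 1 of those comparisons, so these 3 cannot be set as a share beside the 179 called of all 19938 genes. Vnn1 had 3.71 (adjusted p = 0.000197, wild-type effect 3.75, null effect 0.04). Mir107 had -0.71 (adjusted p = 0.0328, effects -0.45 and 0.26), a call lost in 8 of 15 fits without 1 mouse. Rps12 had 0.56 (adjusted p = 0.024, effects 0.09 and -0.48), a call lost in 5 of 15 such fits.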

How the results depend on the processing

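The wild-type Vnn1 rise kept its call in 18 of 18 alternatives (without 1 mouse 3.42 to 3.91, otherwise 3.315 to 3.754), as did that of Pank3. The 18 include the unadjusted exact permutation test. They also include the mean of probe sets, which leaves the values of a gene with 1 probe set unchanged. For Vnn3 the call was lost over all probe sets (0.56, adjusted p = 0.0616) and in 5 of 8 leave-one-out fits (0.45 to 0.62). Leaving out 1 mouse gave -0.085 to 0.13 for Vnn1 in null liver, -0.15 to 0.052 for Pank1 in wild type, -0.051 to 0.022 for the Pank2 interaction and -0.014 to 0.06 for Pank3 between genotypes on corn oil. Called members without 1 mouse were 2 to 3 in wild type and 2 to 3 between genotypes under DEHP. Without dim genes 2 interactions were called (Vnn1 and Coasy), and with 32 added 0 members differed on corn oil. Of all genes called, 770 in wild type became 433 to 614 without 1 mouse, 179 interactions became 61 to 299 without 1 mouse and 564 without dim genes, and 2133 between genotypes under DEHP became 1019 without mouse KO_122. Genes called in null liver, 94 of 19938, ranged from 1 with both null groups alone to 410 without dim genes, and 9 to 168 without 1 mouse. The share of these that rose was 34.0%, or 19.3% after quantile normalization and 50% with centred medians. No paired analysis was possible because the groups share no replicate numbers. Intensities carry no detection call, and 4 or 3 mice per group limit the precision.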
